A study of Homo sapiens with 12 samples.

Results

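Transcripts of DNA polymerase theta (POLQ) and of the genes that sense and repair DNA double-strand breaks were followed in HEL cells after JAK2 knockdown. The group was drawn up as a list of 49 genes, of which 46 had a probe set of their own in the array annotation, out of 11940 genes measured. BRCA2, RBBP8 and FANCA were not analysed here, since probe sets without a single gene symbol in that annotation were not used. POLQ was put at the head of the list because it had been seen to be much lower in these knockdown cells, so its values with the JAK2 hairpins are given as a description with no test, and the other 45 genes were tested. HEL is a human erythroleukaemia line, described in the labels as an AML line homozygous for the activating JAK2V617F mutation, which every group carried. Cells of this 1 line received a lentiviral short hairpin RNA in a puromycin-selectable pLKO vector: Jak2-9 or Jak2-10, both against JAK2, or a control without a JAK2 target. The controls were a luciferase hairpin (Luc) and a GFP construct, which the labels call both a vector control and a control shRNA. Each of the 4 groups had 3 one-colour arrays. Nothing in the labels says that the numbered replicates were grown separately, so p-values here cover only the spread between arrays, which may be technical.

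A double-strand break can be rejoined directly by classical end joining, in which the Ku proteins and DNA-PKcs hold the ends for ligation. When the ends are first cut back to single strands, they can be copied from a sister chromatid by homologous recombination, or annealed at short matching sequences and filled in by POLQ, a route called theta-mediated or microhomology-mediated end joining. The kinases ATM and ATR signal the break, and the Fanconi pathway passes DNA crosslinks on to these repair routes.

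To show the regulatory sequence of POLQ and of the 4 members that passed the test of knockdown against control, their promoter windows are printed 5′ to 3′ on the gene's own strand. Each window is 300 bases long, mostly upstream of the transcript start, from RefSeq on build GRCh38.p14. Capitals mark exact matches, on either strand, to the GAS element of STAT proteins (TTCNNNGAA), to the E2F elements of replication genes (TTTCCCGC, TTTGGCGC, TTTCGCGC or TTTGCCGC) and to the CHR element of cell cycle genes (TTTGAA). For ATM, which has 2 windows in the table, the window at the 5′ end of the gene is shown, and the start in the FANCL window is not the outermost end of that gene.
POLQ promoter, chr3:121545939-121546238, minus strand: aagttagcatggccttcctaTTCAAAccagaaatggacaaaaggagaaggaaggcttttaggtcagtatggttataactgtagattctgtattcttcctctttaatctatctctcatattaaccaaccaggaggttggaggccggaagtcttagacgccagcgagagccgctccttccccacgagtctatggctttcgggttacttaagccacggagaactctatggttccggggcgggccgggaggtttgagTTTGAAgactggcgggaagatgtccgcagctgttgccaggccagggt
XRCC2 promoter, chr7:152676092-152676391, minus strand: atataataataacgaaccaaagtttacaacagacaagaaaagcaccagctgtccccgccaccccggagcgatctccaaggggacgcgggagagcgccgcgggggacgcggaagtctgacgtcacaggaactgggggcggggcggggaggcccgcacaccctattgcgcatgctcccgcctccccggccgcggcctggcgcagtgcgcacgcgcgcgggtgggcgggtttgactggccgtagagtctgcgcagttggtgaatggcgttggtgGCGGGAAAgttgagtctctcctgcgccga
ATM promoter, chr11:108222817-108223116, plus strand: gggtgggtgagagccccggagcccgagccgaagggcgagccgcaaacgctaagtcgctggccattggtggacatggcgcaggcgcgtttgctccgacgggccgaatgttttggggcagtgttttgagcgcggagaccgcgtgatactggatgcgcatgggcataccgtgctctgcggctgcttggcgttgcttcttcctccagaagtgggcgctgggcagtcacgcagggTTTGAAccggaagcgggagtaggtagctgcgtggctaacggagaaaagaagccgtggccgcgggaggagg
FANCL promoter, chr2:58241276-58241575, minus strand: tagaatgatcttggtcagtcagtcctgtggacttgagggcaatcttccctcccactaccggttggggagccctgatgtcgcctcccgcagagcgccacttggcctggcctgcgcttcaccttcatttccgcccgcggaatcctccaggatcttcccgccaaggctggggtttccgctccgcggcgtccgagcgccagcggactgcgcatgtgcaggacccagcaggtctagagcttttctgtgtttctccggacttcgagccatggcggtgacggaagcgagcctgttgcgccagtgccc
PMS1 promoter, chr2:189784200-189784499, plus strand: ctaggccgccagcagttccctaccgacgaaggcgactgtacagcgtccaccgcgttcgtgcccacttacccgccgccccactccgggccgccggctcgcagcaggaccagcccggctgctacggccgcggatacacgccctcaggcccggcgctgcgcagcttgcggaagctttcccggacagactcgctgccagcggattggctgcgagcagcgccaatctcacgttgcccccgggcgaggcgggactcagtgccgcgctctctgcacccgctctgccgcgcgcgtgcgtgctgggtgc
The POLQ window held 2 CHR matches, the ATM window 1 CHR match and the XRCC2 window 1 E2F match, while the FANCL and PMS1 windows held none of these letters. None of the 5 windows held the GAS letters. Among the 39 measured members with a window, 2 held a GAS match (PARP2 and TOPBP1), a share of 5.13% against 7.88% of all 27305 genes with windows. E2F letters stood in 8 of the 39 (20.5%, against 3.34% of all genes) and CHR letters in 7 (17.9%, against 15.5%). The CCAAT box (CCAAT) stood in 19 (48.7%, against 35.7%) and the GC box (GGGCGG) in 32 (82.1%, against 44.5%). These shares of all genes cover every gene with a window, measured or not, and were not matched to the members for base content. A match describes the letters in the window and shows no binding.

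JAK2 itself, the target of both hairpins, measured 10.47, 10.40 and 10.68 on the log2 intensity scale in the 3 GFP arrays and 10.47, 10.63 and 10.56 in the Luc arrays. It measured 9.37, 9.89 and 10.09 with Jak2-9 and 10.06, 10.04 and 9.78 with Jak2-10. The knockdown and control arrays did not overlap, and JAK2 fell to 63.1% of control (log2 fold change -0.67 ± 0.11, SE; limma, adjusted p = 0.00400). Against the controls the fall passed the threshold with Jak2-9 (adjusted p = 0.00768) and missed it with Jak2-10 (adjusted p = 0.0824). Cell type markers were read on the control arrays against the median of the table, 5.56 on the log2 scale. All 9 measured of 12 erythroid genes lay above it, as did 5 of 6 megakaryocyte genes. So did 2 of 4 B cell, 1 of 5 T cell, 1 of 5 fibroblast, 0 of 5 granulocyte, 0 of 3 monocyte and 0 of 5 epithelial genes. The T cell gene was CD2 (8.95) and the fibroblast gene DCN (10.16). None of these markers passed the test of knockdown against control. Jak2-9 replicate 1 stood apart from the other arrays: it was more than 2-fold away from its companion Jak2-9 arrays for 253 genes, against 0 to 13 on any other array.

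POLQ, the polymerase that anneals and fills in resected ends, was far lower on every knockdown array. It measured 7.54, 6.95 and 6.61 on the log2 intensity scale in GFP cells and 7.79, 7.91 and 8.00 in Luc cells. With Jak2-9 it measured 4.87, 5.05 and 5.02, and with Jak2-10 5.06, 5.20 and 4.93. The highest knockdown array lay well below the lowest control array, and the arrays of the 2 hairpins were interleaved. On the linear intensity scale POLQ averaged 31.6 ± 2.10 under Jak2-9 and 33.6 ± 3.04 under Jak2-10, against 136 ± 45.7 for GFP and 239 ± 17.4 for Luc (SD over 3 arrays in each group). Relative to control, POLQ under both hairpins stood at 18.4%, a log2 fold change of -2.44. Jak2-9 alone gave 17.9% and Jak2-10 alone 18.9%. POLQ was read by the 1 probe set that the annotation names for it, and further probe sets of POLQ or BRCA1 may stand unread among those without a gene symbol. The median intensity of whole arrays lay between 44.9 and 49.1, so its intensities of 29.3 to 36.7 on the knockdown arrays may lie at the array's background. The percentages of control are then upper limits of the level that remained. In bulk RNA, fewer cells that express a gene and less of its RNA per cell cannot be told apart.

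Since the arrays of both hairpins may read background, no difference in POLQ between Jak2-9 and Jak2-10 can be read from them. The contrast of the 2 controls did not enter the choice of POLQ and was tested. All 3 Luc arrays lay above all 3 GFP arrays, as did 3.58% of all genes. Luc was at 182% of GFP (interval 140% to 236%), a difference of 0.86 ± 0.18 that did not pass over all genes (limma, adjusted p = 0.633, unadjusted p = 0.000212). Without GFP replicate 1, the highest GFP array, the difference was 1.12 and passed (limma, adjusted p = 0.0131). Set against GFP alone POLQ was lower by a log2 fold change of -2.01 with both hairpins, and against Luc alone by -2.88.

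**Figure D1:**
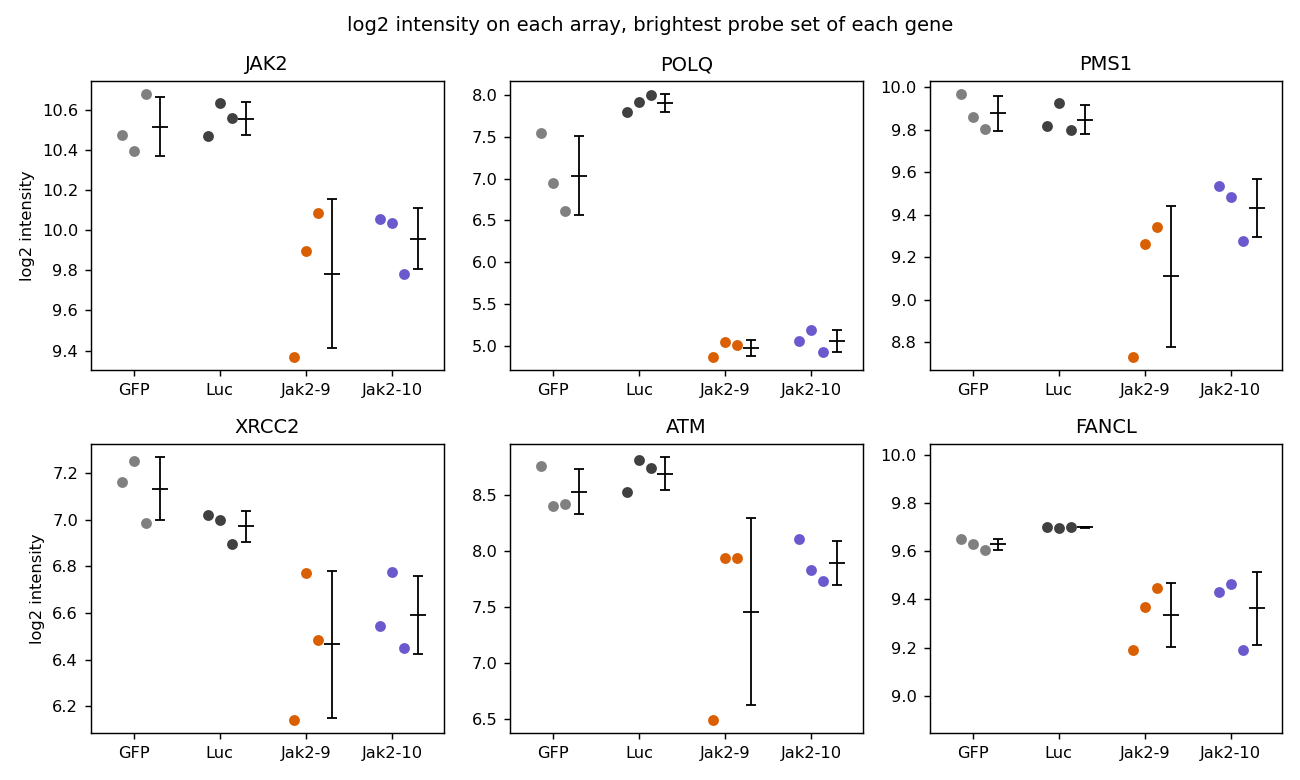
Log2 intensity of JAK2, POLQ, PMS1, XRCC2, ATM and FANCL on each of the 12 arrays, with a panel per gene and its own scale; points are arrays in replicate order and bars are the group mean ± SD (n = 3). In every panel the 6 knockdown arrays lie below the 6 control arrays, the gap is widest for POLQ, and Jak2-9 replicate 1 is the lowest point for JAK2, POLQ, PMS1, XRCC2 and ATM.

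Of the 45 members tested, 4 fell in knockdown against control cells and 0 rose (limma, adjusted p under 0.05). Over all genes 1.39% fell and 0.436% rose. That balance depends on scaling, with 166 genes lower and 52 higher as deposited and 150 lower and 135 higher after each array was centred on its median, while the members stayed at 4 and 0. The 4 were PMS1, XRCC2, ATM and FANCL, and each belongs to a different repair function. With GFP replicate 1, 2 or 3, Luc replicate 2 or 3, or Jak2-10 replicate 3 left out, 2 members were called, PMS1 and XRCC2, and with Jak2-9 replicate 3 left out 5 were. Against GFP alone 2 were called, and against Luc alone 1, PMS1. The count over all genes moved in the same fits, from 166 that fell to 69 against GFP alone and 138 against Luc alone. Without 1 array it was 110 to 148 where 2 members were called, and 208 where 5 were. At unadjusted p under 0.05, 8 members were lower and 2 higher, against 5.72% and 10.5% of all genes. The same 4 genes were the only tested members whose knockdown arrays were every one below the lowest control array, which held for 1.51% of all genes; no member lay wholly above, against 1.2% of genes. The log2 fold changes of the 45 ran from -0.94 to 0.34 with a median of -0.07, against 0.04 for all genes, and 32 of 45 (71.1%) were below 0, against 36.5% of genes. Without Jak2-9 replicate 1, 26 of 45 (57.8%) were below 0, against 37.6% of genes, and the median was -0.02, against 0.03. The Alu control probe set of the array, which reads a repeat found in many transcripts, also moved with knockdown. It averaged 14.61 ± 0.07 on the control arrays and 14.06 ± 0.10 on the knockdown arrays (SD, n = 6 each), with no overlap (exact two-sided permutation test over 924 arrangements, p = 0.00216, or 0.00649 adjusted over 3 control measures). Its part in the members' values was not tested. The log2 ratios of 3′ to 5′ control probe sets, a measure of RNA integrity, were 0.27 in control and 0.20 in knockdown arrays for ACTB (exact permutation p = 0.210) and -0.04 and -0.03 for GAPDH (exact permutation p = 0.714). Jak2-9 replicate 1 had the highest ratio of the 12 arrays on both, 0.42 for ACTB against 0.13 to 0.20 on the other knockdown arrays, and 0.09 for GAPDH against -0.13 to -0.02. The part of these ratios in that array's values was not tested.

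**Figure D2:**
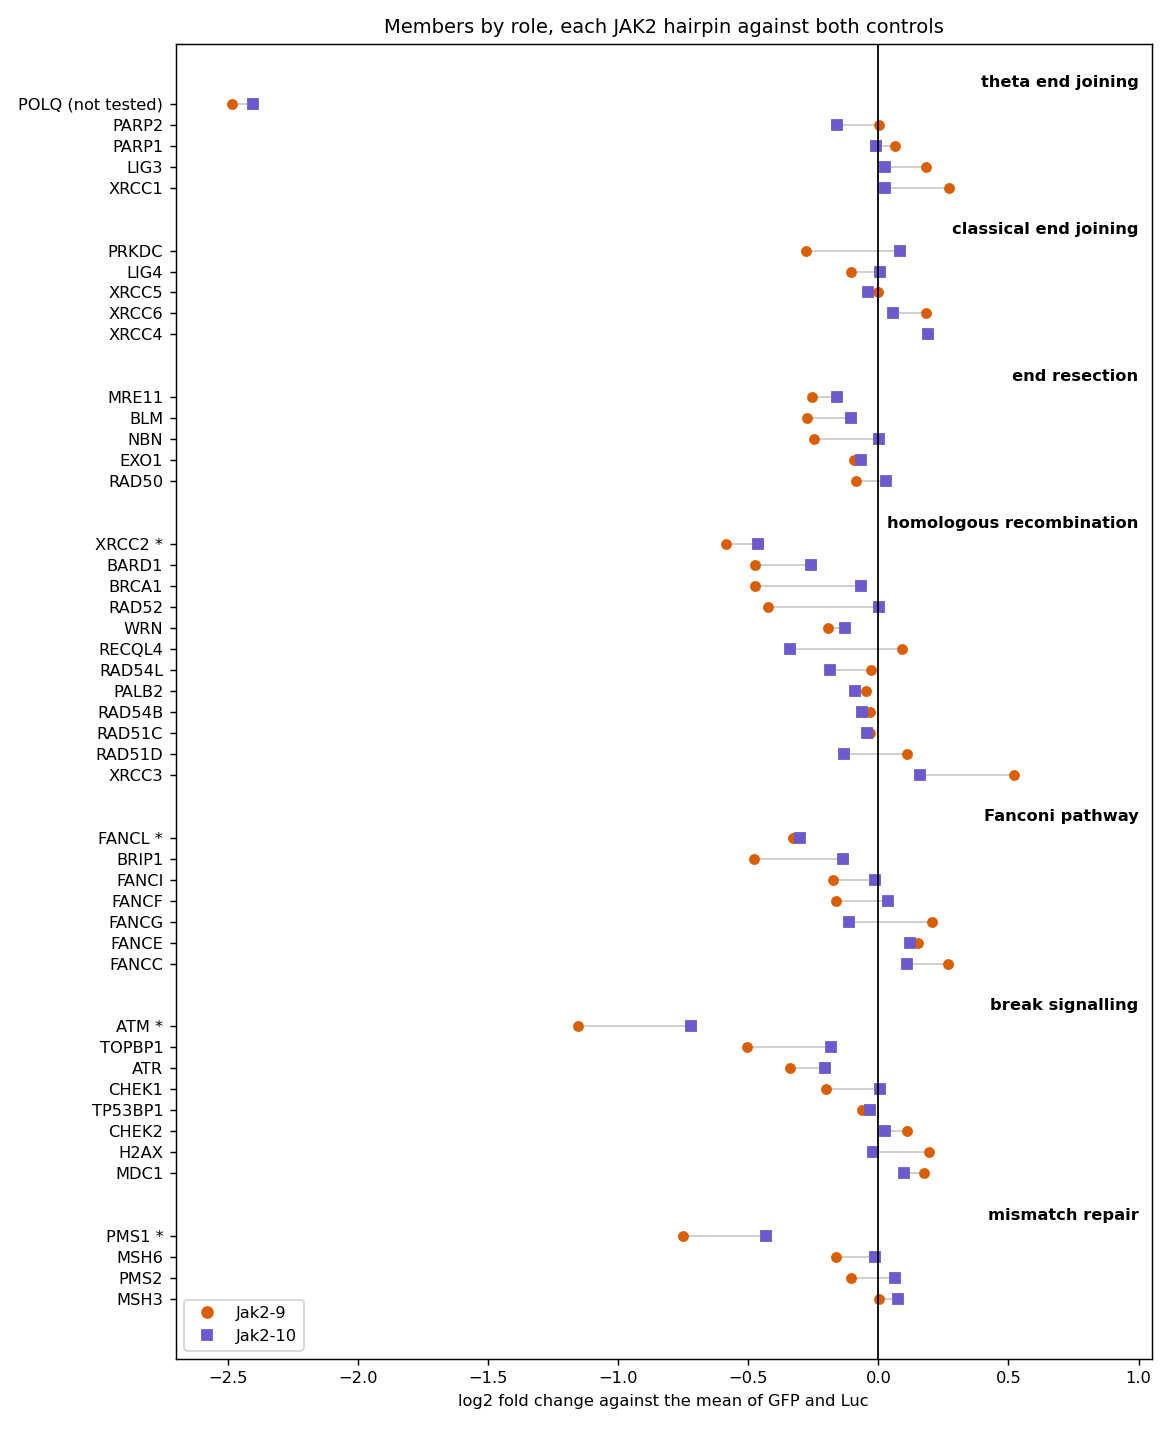
Log2 fold change of each measured member against the mean of GFP and Luc, for Jak2-9 (circles) and Jak2-10 (squares), in blocks by role; asterisks mark members that passed with both hairpins combined. POLQ lies near -2.4 and -2.5 with both hairpins, ATM, PMS1, XRCC2 and FANCL lie to the left of 0 with both, and most others lie within 0.5 of 0. Both symbols of a gene share the same control arrays.

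Of the 4 other members of theta-mediated end joining, 0 passed the test, where 1.39% of all genes fell and 0.436% rose. PARP1 and PARP2, the poly(ADP-ribose) polymerases that bind broken ends early, gave log2 fold changes of 0.03 and -0.08 in knockdown against control. LIG3, the ligase that seals theta-joined ends, gave 0.10 and its partner XRCC1 gave 0.15. PARP1 measured 10.31 to 10.39 on the control arrays and 10.31 to 10.49 on the knockdown arrays, on the log2 intensity scale. XRCC1 spread more widely, from 7.39 to 7.76 on the control arrays and from 7.36 to 8.15 on the knockdown arrays, and gave 0.27 with Jak2-9 alone (limma, adjusted p = 0.201). The 95% intervals of knockdown as a percentage of control were 93.1% to 112% for PARP1, 86.1% to 104% for PARP2, 95.9% to 120% for LIG3 and 95.3% to 129% for XRCC1.

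Of the 5 genes of classical end joining, 0 passed the test, where 1.39% of all genes fell and 0.436% rose. XRCC5 and XRCC6, which encode the Ku subunits that grip broken ends, gave log2 fold changes of -0.02 and 0.12, although XRCC6 gave -0.04 when its probe sets were averaged. XRCC4, the scaffold of the final ligase, gave 0.19 (limma, adjusted p = 0.304) and LIG4, that ligase, -0.05. PRKDC, the catalytic subunit DNA-PKcs, gave -0.10 at its brightest probe set. There the value of -0.10 rested on 1 array: Jak2-9 replicate 1 measured 9.78 on the log2 intensity scale, the other knockdown arrays 10.81 to 10.97 and the control arrays 10.66 to 10.89. Without that array PRKDC gave 0.09.

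End resection prepares a break for POLQ and for recombination. Its 5 measured genes all lay below 0 in knockdown against control, against 36.5% of all genes. Of the 5, 0 passed the threshold, where 1.39% of all genes fell and 0.436% rose. With Jak2-10 alone 3 of the 5 lay below 0. MRE11, the nuclease of the MRE11-RAD50-NBN complex, gave -0.21 (limma, adjusted p = 0.194), NBN -0.12 and RAD50 -0.03. BLM, a helicase of long-range resection, gave -0.19 and EXO1, the exonuclease that works beside it, -0.08. BLM again followed Jak2-9 replicate 1, which measured 8.67 against 9.31 to 9.58 on the other knockdown arrays and 9.43 to 9.74 on the control arrays. Without it BLM gave -0.04 and RAD50 0.11, and 4 of the 5 lay below 0.

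In homologous recombination 1 of 12 measured genes fell and 0 rose, against 1.39% and 0.436% of all genes. Of the 12, 11 lay below 0, against 36.5% of all genes, and 9 did without Jak2-9 replicate 1, against 37.6%. XRCC2, a protein needed for strand exchange between a broken end and its sister, measured 7.16, 7.25 and 6.98 in GFP cells and 7.02, 7.00 and 6.90 in Luc cells on the log2 intensity scale. With Jak2-9 it measured 6.14, 6.77 and 6.49, and with Jak2-10 6.55, 6.78 and 6.45. The groups did not overlap, and XRCC2 fell to 69.6% of control (log2 fold change -0.52 ± 0.10, SE; limma, adjusted p = 0.0131). Against Luc alone the fall of -0.44 missed the threshold (limma, adjusted p = 0.131). XRCC3, another recombination gene, gave 0.34 ± 0.11, the highest value of the group (limma, adjusted p = 0.173). XRCC3 measured 5.81 to 6.40 on the control arrays and 6.12 to 6.88 on the knockdown arrays, so the groups overlapped. It passed without Jak2-9 replicate 2, at 0.43 (limma, adjusted p = 0.0370). Without Jak2-9 replicate 1, its highest array, XRCC3 gave 0.26 and did not pass (limma, adjusted p = 0.234). RAD51C and RAD51D gave -0.04 and -0.01.

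BRCA1 and BARD1, the ubiquitin ligase pair that favours recombination, gave -0.27 and -0.37 and missed the threshold (limma, adjusted p = 0.230 and 0.210). BRCA1 measured 7.91 to 8.11 on the control arrays, 7.92 to 8.00 with Jak2-10, and 7.09, 7.75 and 7.82 with Jak2-9. The Jak2-10 arrays lay within the control range and the Jak2-9 arrays below it. BARD1 measured 9.33 to 9.82 on the control arrays, 9.25 to 9.43 with Jak2-10, and 8.57, 9.15 and 9.61 with Jak2-9. BARD1 passed without Jak2-9 replicate 3, at -0.49 (limma, adjusted p = 0.0300). Without Jak2-9 replicate 1, the lowest array for both genes, BARD1 gave -0.23 and BRCA1 -0.15 (limma, adjusted p = 0.272 and 0.254). For RAD52, a protein that anneals single strands, the brightest probe set of the annotation measured 8.95, 10.32 and 10.32 with Jak2-9. It measured 10.21 to 10.33 with Jak2-10 and 10.12 to 10.38 in the controls. The other RAD52 probe sets were far dimmer, some of them fell, and they are given below. Whether the brightest one reads the same transcript as those was not tested, so its values may not be the level of RAD52. At the brightest one the log2 fold change of -0.21 came from Jak2-9 replicate 1 and was 0.02 without it. PALB2, which joins BRCA1 to BRCA2, gave -0.07 and, without that array, 0.01. The helicases WRN and RECQL4 gave -0.16 and -0.13, and the motor proteins RAD54L and RAD54B -0.11 and -0.05.

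The Fanconi pathway had 1 member of 7 that fell and 0 that rose, against 1.39% and 0.436% of all genes. FANCL, the ubiquitin ligase at the centre of the pathway, measured 9.65, 9.63 and 9.61 in GFP cells and 9.70 on each Luc array. It measured 9.19, 9.37 and 9.45 with Jak2-9 and 9.43, 9.47 and 9.19 with Jak2-10. The fall was small beside those of the other called members but lay outside the tight control range, at 80.4% of control (log2 fold change -0.32 ± 0.07, SE; limma, adjusted p = 0.0365). It rested on all controls: without any 1 of the 6 control arrays, or without Jak2-10 replicate 1 or 3, the adjusted p lay between 0.0603 and 0.107. It missed against GFP alone (0.283) and against Luc alone (0.0779) as well. BRIP1, the helicase that partners BRCA1, gave -0.31 (limma, adjusted p = 0.325) and -0.17 without Jak2-9 replicate 1. Of the core complex genes, FANCC, FANCE, FANCG and FANCF gave 0.19, 0.14, 0.05 and -0.06, and FANCG turned to -0.08 without that array. FANCI, a target of FANCL, gave -0.09.

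Among the 8 break signalling genes 1 fell and 0 rose, against 1.39% and 0.436% of all genes. ATM, the kinase first activated by double-strand breaks, measured 8.76, 8.41 and 8.43 in GFP cells and 8.53, 8.82 and 8.74 in Luc cells on the log2 intensity scale. With Jak2-9 it measured 6.50, 7.94 and 7.94, and with Jak2-10 8.11, 7.84 and 7.73. All knockdown arrays were below all control arrays, and replicate 1 of Jak2-9 was far below the rest. ATM fell to 52.2% of control (log2 fold change -0.94 ± 0.20, SE; limma, adjusted p = 0.0260), the largest tested change of any member. Without Jak2-9 replicate 1 the fall was -0.70, with a smaller spread (limma, adjusted p = 0.000347). Without GFP replicate 1, 2 or 3, Luc replicate 2 or 3, or Jak2-10 replicate 2 or 3 it missed the threshold, at an adjusted p of 0.0527 to 0.0921. It also missed against GFP alone (0.237) or Luc alone (0.0657).

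ATR, the kinase of resected ends and stalled forks, gave -0.27 and its activator TOPBP1 -0.34, neither past the threshold (limma, adjusted p = 0.373 and 0.144). TOPBP1 measured 9.85, 10.42 and 10.54 with Jak2-9 and 10.39 to 10.71 with Jak2-10, against 10.67 to 10.87 in the controls, so that Jak2-10 replicate 2 reached the control range. CHEK1 and CHEK2, the kinases downstream of ATR and ATM, gave -0.10 and 0.07, and CHEK2 gave -0.01 against GFP alone. The chromatin factors that mark a break also stayed close to 0: H2AX gave 0.09, MDC1 0.14 and TP53BP1 -0.05.

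The lowest p-value among the tested members belonged to PMS1, a MutL homologue of the mismatch repair family. PMS1 measured 9.97, 9.86 and 9.80 in GFP cells and 9.82, 9.92 and 9.80 in Luc cells on the log2 intensity scale. With Jak2-9 it measured 8.73, 9.26 and 9.34, and with Jak2-10 9.54, 9.48 and 9.28. The groups did not overlap, and PMS1 fell to 66.4% of control (log2 fold change -0.59 ± 0.10, SE; limma, adjusted p = 0.00445). In mismatch repair 1 of 4 measured genes fell and 0 rose, against 1.39% and 0.436% of all genes. The other 3 mismatch repair genes did not pass: MSH6 gave -0.09, PMS2 -0.02 and MSH3 0.04. MSH3 had no stable direction, and went to -0.08 with Luc as the control.

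**Figure D3:**
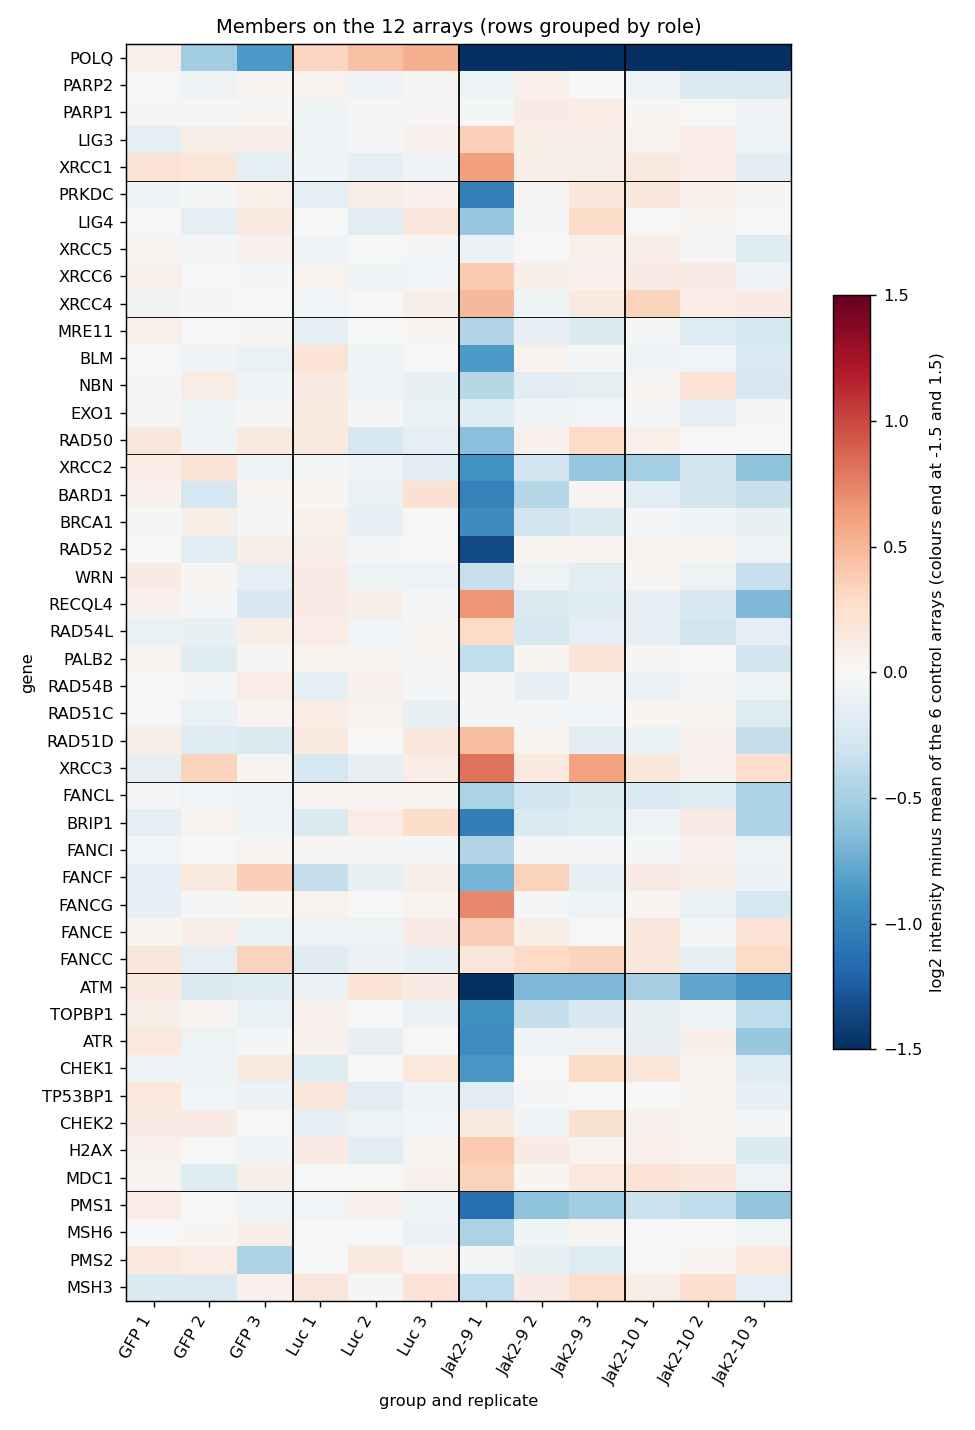
Log2 intensity of the 46 members (rows, grouped by role) on the 12 arrays (columns), shown as the difference from the mean of the 6 control arrays; blue is lower and red higher, and differences past the ends of the colour scale take the end colour. POLQ is at the end of the blue scale on all knockdown arrays, PMS1, ATM and XRCC2 are blue on all of them, and Jak2-9 replicate 1 is the column with the strongest colours in both directions.

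Jak2-9 replicate 1 held the lowest value of the 12 arrays for 25 of the 46 members and the highest for 12, together 80.4% of members, against 55.4% of all genes. Jak2-10 replicate 3 held the lowest value for 10 and the highest for 0, together 21.7% of members, against 24.6% of all genes. It held the lowest value for 17.8% of all genes. Among the 25 were PRKDC, BLM, BRCA1, BARD1, RAD52, BRIP1, ATM and PMS1. Among the 12 were XRCC1, XRCC3, XRCC4 and RECQL4. Leaving that array out kept 4 members past the threshold in knockdown against control, the same 4 genes, and 1.64% of all genes then fell.

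By hairpin, 3 of 45 members fell and 0 rose with Jak2-9, against 1.47% and 1.6% of all genes. At unadjusted p under 0.05, 10 were lower and 3 higher, against 7.22% and 17% of all genes. PMS1 gave -0.75 (limma, adjusted p = 0.00369), XRCC2 -0.59 (0.0221) and ATM -1.15 (0.0236), while FANCL at -0.33 missed the threshold (0.0539). Without Jak2-9 replicate 1 PMS1 (-0.56) and ATM (-0.67) remained past the threshold and XRCC2 (-0.42) did not (limma, adjusted p = 0.0818). XRCC2 also missed without GFP replicate 1 or 2 or Luc replicate 1 or 2 (limma, adjusted p = 0.0515 to 0.0573), and ATM without GFP replicate 1 or Luc replicate 2 or 3 (0.0505 to 0.0606). FANCL passed when replicate 3 of Jak2-9 (0.0319) or replicate 3 of Jak2-10 (0.0400) was left out. The count of members that fell was 7 without replicate 3 of Jak2-9, 5 without its replicate 2, and 1 without GFP replicate 1 or Luc replicate 2. The count over all genes moved in the same fits, from 176 that fell to 455 and 305 without those Jak2-9 arrays, and to 109 and 119 without those controls.

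With Jak2-10 0 of 45 members passed in either direction by limma, against 0.645% of genes that fell and 0.0419% that rose; at unadjusted p under 0.05, 4 members were lower and 0 higher, against 3.11% and 2.65% of all genes. The 4 genes called for both hairpins combined gave -0.46 (XRCC2), -0.43 (PMS1), -0.30 (FANCL) and -0.72 (ATM). Their Jak2-10 arrays lay below all control arrays in each case, which already follows from the separation of all knockdown arrays given above. When Jak2-9 replicate 1 was left out of the fit, ATM, PMS1 and XRCC2 passed with Jak2-10 at the same fold changes (limma, adjusted p = 0.00174, 0.0103 and 0.0215). In that fit 1.09% of all genes fell with Jak2-10.

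Set directly against each other, the hairpins differed for 0 of 45 members by limma, POLQ left out, and 0% of all genes were called in either direction; at unadjusted p under 0.05, 2 members were lower and 2 higher with Jak2-10, against 7.33% and 2.5% of all genes. The difference of Jak2-10 from Jak2-9 on the log2 scale was 0.32 for PMS1 (interval 0.02 to 0.62) and 0.43 for ATM (-0.18 to 1.04). For XRCC2 it was 0.12 (-0.18 to 0.43) and for FANCL 0.03 (-0.19 to 0.24). For PMS1 and ATM the upper ends of these intervals lie beyond the size of their falls in knockdown against control, -0.59 and -0.94. BRCA1 was higher with Jak2-10 by 0.41 (interval 0.08 to 0.73), which did not pass over all genes (limma, adjusted p = 0.499). Luc against GFP called 0 of 46 members by limma, and 0% of all genes; POLQ was the only member at unadjusted p under 0.05, where 1.01% of all genes were higher and 0.905% lower.

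Of the 46 members 20 had more than 1 probe set, and each of the 79 probe sets was also tested by itself over 19415 probe sets. PMS1, XRCC2 and FANCL had 1 probe set each, so their falls had no second reading. Whether the probe sets of these genes, or of any other gene named here, read only that gene was not tested. In knockdown against control 9 of the 78 tested were lower and 0 higher, against 2.08% and 0.603% of all probe sets. All 3 ATM probe sets fell, by log2 fold changes of -0.94, -0.94 and -0.47 (limma, adjusted p = 0.0227, 0.0228 and 0.0145). At the probe set with -0.47 the knockdown arrays reached from 6.85 to 7.72 and the control arrays from 7.70 to 8.06, so those groups just touched. RAD52 disagreed among its 4 probe sets: 2 dim ones fell by -0.28 and -0.44 (limma, adjusted p = 0.0484 and 0.0144), the brightest gave -0.21 and the dimmest 0.13, neither past the threshold. On the control arrays the brightest averaged 10.28 on the log2 intensity scale, the 2 that fell 5.97 and 5.89, and the dimmest 5.59. Whether all 4 read the same transcript was not tested. The dimmest PRKDC probe set fell by -0.55 (limma, adjusted p = 0.0380), while the 2 brighter ones gave -0.10 and -0.12. On that probe set the knockdown arrays measured 4.66 to 4.85, near the low end of the scale. The 2 MSH3 probe sets gave 0.04 and -0.26, neither past the threshold. With Jak2-9 8 of 78 were lower and 0 higher (2.15% and 1.46% of all probe sets), 1 of them for NBN (-0.41, limma, adjusted p = 0.0461), and with Jak2-10 0 of 78 were (1.01% of all).

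**Figure D4:**
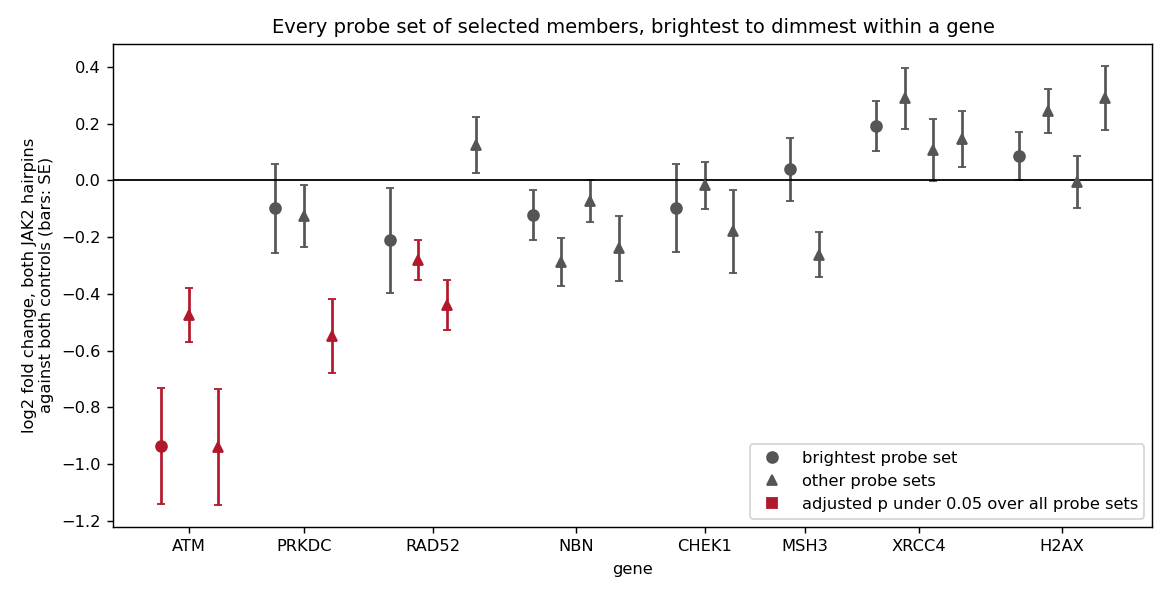
Log2 fold change (± SE) of every probe set of 8 members in knockdown against control, ordered from the brightest (circle) to the dimmest within a gene; red marks adjusted p under 0.05 over all probe sets. All 3 ATM probe sets are red, RAD52 has 2 red and 1 above 0, PRKDC has 1 red, and the 4 XRCC4 probe sets all lie above 0 without passing.

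Other genes of the same pathways were examined from lists chosen by function, with earlier results of these data known. In the Fanconi pathway 1 of 5 measured genes fell and 0 rose, against 1.39% and 0.436% of all genes. The gene that fell was FAN1, the nuclease recruited by the pathway to crosslinked DNA. FAN1 measured 7.31, 6.76 and 7.12 in GFP cells, 7.54, 7.22 and 7.51 in Luc cells, 5.38, 5.84 and 6.25 with Jak2-9 and 6.37, 6.24 and 5.97 with Jak2-10. No knockdown array reached a control array, and FAN1 fell to 42.5% of control (log2 fold change -1.23 ± 0.14, SE; limma, adjusted p = 0.000153). It passed with each hairpin, at -1.42 with Jak2-9 (0.000371) and -1.05 with Jak2-10 (0.00946). The annotation named no other probe set for FAN1.

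In end joining and single-strand break repair 1 of 10 fell and 0 rose, against 1.39% and 0.436% of all genes. The gene that fell was DCLRE1C, which encodes Artemis, the nuclease that opens hairpin ends in classical end joining. It measured 9.25, 9.15 and 8.73 in GFP cells, 9.23, 9.05 and 9.22 in Luc cells, 8.39, 8.12 and 8.47 with Jak2-9 and 8.58, 8.58 and 8.43 with Jak2-10. The groups did not overlap, and DCLRE1C fell to 62.6% of control (log2 fold change -0.68 ± 0.10, SE; limma, adjusted p = 0.00111). It passed with Jak2-9 at -0.78 (0.00216) and with Jak2-10 at -0.57 (0.0393). Its dimmer probe set gave -0.58 (limma, adjusted p = 0.00311 over all probe sets).

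No other DNA polymerase gene passed the test of knockdown against control. Of the 20 measured besides POLQ 0 passed in either direction, and their log2 fold changes ran from -0.43 to 0.32 with a median of -0.06. At unadjusted p under 0.05, 5 of them were lower and 3 higher. Beside the calls here and in the lists that follow, 1.39% of all genes fell and 0.436% rose. Beside the unadjusted counts, 5.72% of all genes were lower and 10.5% higher. POLD3, a subunit of polymerase delta used in break-induced replication, gave -0.30 and just missed the threshold (limma, adjusted p = 0.0515), and POLG2, of the mitochondrial polymerase, gave -0.42 (0.116). Of 16 other recombination genes 0 passed (3 lower and 1 higher unadjusted), with a median of 0.01; PSMC3IP, a strand exchange cofactor, gave -0.29 (0.0935) and DNA2, a resection nuclease, -0.36 (0.173). Of 21 other signalling genes 0 passed (0 lower and 4 higher unadjusted), with a median of -0.05; ATMIN, an ATM cofactor, gave 0.24 (0.125) and BABAM2, of the BRCA1-A complex, 0.29 (0.145). Of 7 other mismatch repair genes 0 passed (1 lower and 0 higher unadjusted), with a median of -0.07; MLH3, a MutL homologue, gave -0.16 (0.276) and RFC4, of the clamp loader, -0.13 (0.439).

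**Figure D5:**
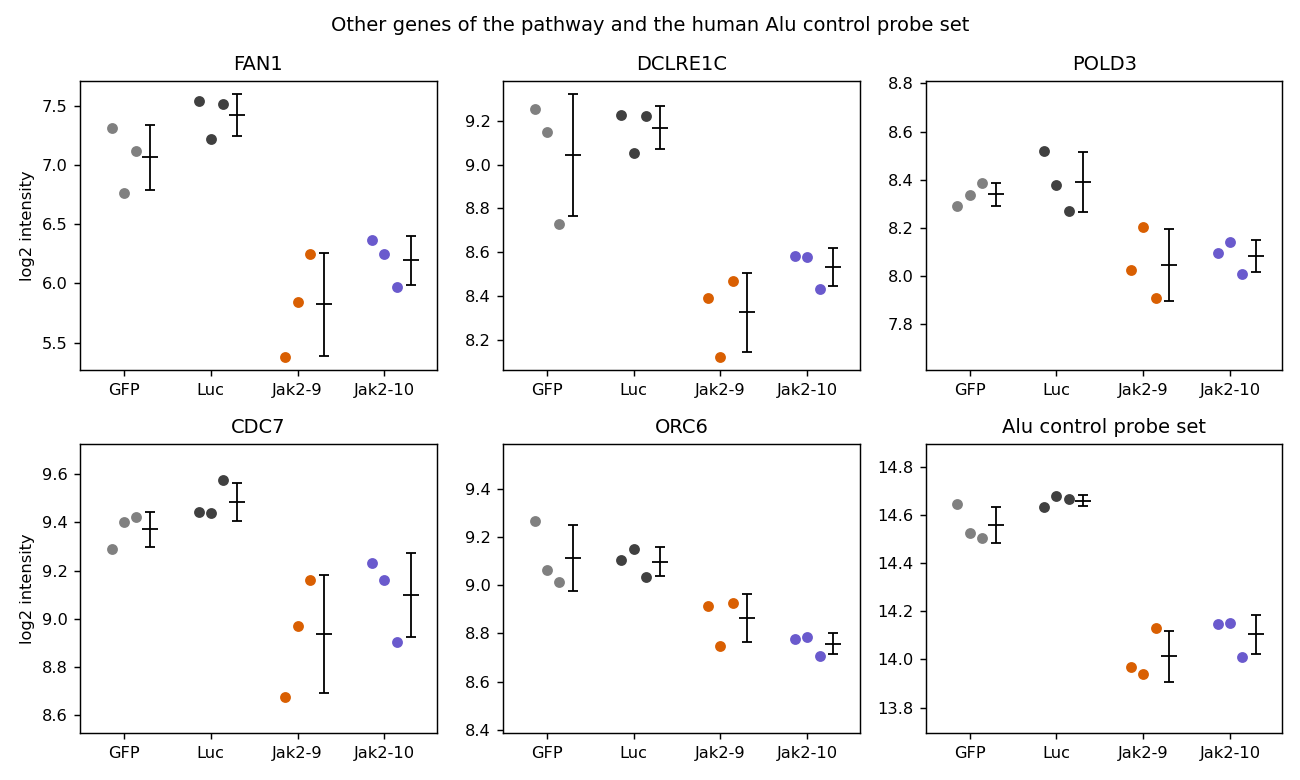
Log2 intensity of FAN1, DCLRE1C, POLD3, CDC7, ORC6 and the human Alu control probe set on each of the 12 arrays, with a panel for each and its own scale; bars are the group mean ± SD (n = 3). In all 6 panels the knockdown arrays lie below the control arrays.

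Because many repair genes are transcribed as cells enter S phase, the cell cycle lists were read beside the members. Of 28 measured G1/S and replication genes 2 fell and 0 rose in knockdown against control (7.14% fell, against 1.39% of all genes), and the median of the list was 0.05, against 0.04 for all genes. CDC7, the kinase that fires replication origins, gave -0.41 (limma, adjusted p = 0.0276), and ORC6, an origin recognition subunit, -0.30 (0.0434). Neither call was firm. CDC7 missed when any 1 of the 6 control arrays, or Jak2-10 replicate 2 or 3, was left out (0.0535 to 0.0852). ORC6 missed when any 1 control or Jak2-10 array, or Jak2-9 replicate 2, was left out (0.0501 to 0.139). Of 31 G2/M and mitosis genes 0 passed in knockdown against control by limma (unadjusted p was under 0.05 for 1 lower and 4 higher), with a median of 0.05; PLK1 gave 0.31 (0.118) and AURKB 0.30 (0.125), both mitotic kinases. With Jak2-9 alone 2 of the 31 rose, AURKB (0.47, limma, adjusted p = 0.0355) and PLK1 (0.45, 0.0419), and 0 fell. Of the 28 G1/S genes 1 rose with Jak2-9, MCM2 of the replicative helicase (0.39, 0.0428), and 1 fell, CDC7 (-0.49, 0.0278), against 1.6% of all genes that rose and 1.47% that fell. With Jak2-10 alone 0 of either list passed by limma (at unadjusted p under 0.05, 0 of 31 G2/M genes, and 2 lower and 0 higher of 28 G1/S genes).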

How the data were processed

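HEL cell RNA was purified with Trizol and amplified linearly before biotin labelling, per the labels' protocols. The authors deposited a table of linear intensity values, made with RMA according to the submitters' processing notes (its version is not given). RMA quantile normalizes the arrays and compresses changes of dim probe sets. Values were taken to log2 with no pseudocount. Detection calls were not used, and precision is limited by having 3 arrays a group.

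Of 22930 probe sets, 524 controls were left out of gene tests, 19415 had 1 gene symbol in the platform annotation, and each of 11940 genes was represented by its brightest probe set. A model with 4 group means over all 12 arrays was fitted with limma 3.58.1 in R 4.3.3 (lmFit, eBayes), with Benjamini-Hochberg adjustment over all genes and a threshold of 0.05; it was tested on simulated data. Knockdown against control is the mean of both JAK2 hairpins minus the mean of both controls. Other contrasts were each hairpin against both controls, Jak2-10 against Jak2-9, and Luc against GFP. Control probe measures were compared by exact permutation tests. Promoter windows of RefSeq were searched for exact letters on both strands.

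The members and lists were chosen with earlier results of these data known. The genes named are JAK2, POLQ, every member past the threshold, the 12 members with the largest falls and the 12 with the largest rises, members whose probe sets disagree in sign, and, of each other list, those past the threshold or the 2 with the lowest p; members outside this rule are named to complete their role, a choice made after their values were seen. Alternatives were a replicate block, other normalization, filters, probe set summaries, weights, single controls, fits on the compared arrays, and leaving out each array.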

Additional observations from a re-analysis of the deposited data

How the results depend on the processing

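PMS1 fell with adjusted p under 0.05 in all 21 alternatives of knockdown against control (0.000108 to 0.0354), as did FAN1 and DCLRE1C. XRCC2 missed in 1 of 21, ATM in 9 and FANCL in 11. The fit with a replicate block called 3 members, without FANCL (adjusted p = 0.0556), but the replicate numbers did not pair the arrays: same-numbered arrays correlated from -0.12 to 0.18, and 5 of 12 correlated best with their own number. The 4 members called became 2 against GFP alone, 1 against Luc alone, and 2 to 5 without 1 array; 2 were left without GFP replicate 1, 2 or 3, Luc replicate 2 or 3, or Jak2-10 replicate 3. Over all genes the 166 that fell became 69 against GFP alone and 138 against Luc alone. The count of member rises went from 0 to at most 1, without Jak2-9 replicate 2, where the 52 rises over all genes became 83. With Jak2-9 the 3 calls became 5 under quantile normalization, without the dimmest 30% of genes, with array weights or with each probe set by itself, 6 with the mean of all probe sets, 1 with only the arrays compared, and 1 to 7 without 1 array (1 without GFP replicate 1 or Luc replicate 2, 5 without Jak2-9 replicate 2); rises went from 0 to 1 with median centring and 0 to 1 without 1 array. With Jak2-10 the 0 calls became 3 with array weights or only the arrays compared, and 0 to 3 without 1 array. In Luc against GFP the rises were 0 to 1 without 1 array. Why these counts moved was not tested, beyond the fewer arrays of some fits. Median centring moved the median of all genes from 0.04 to 0.08.

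Among the members named by rule, signs turned for small values. In knockdown against control these were RAD52 (0.0085 with array weights; -0.33 to 0.017 without 1 array, turned without Jak2-9 replicate 1), XRCC6 (-0.044 with the mean of probe sets), CHEK2 (-0.013 against GFP alone) and FANCG (-0.029 with array weights; -0.082 to 0.12 without 1 array, turned without Jak2-9 replicate 1). MSH3 turned to -0.11 with the mean of probe sets, to -0.079 against Luc alone, and without Jak2-10 replicate 2 or Jak2-9 replicate 3 (-0.025 to 0.13 without 1 array). Of the other members, PRKDC (0.088), CHEK1 (0.070), RAD50 (0.11), LIG4 (0.068), PALB2 (0.012) and FANCF (0.071) also turned without Jak2-9 replicate 1; their signs under the other alternatives were not computed. In Jak2-10 against Jak2-9, XRCC2 turned to -0.011 with array weights. There XRCC2 (-0.037 to 0.28), ATM (-0.048 to 0.68) and FANCL (-0.046 to 0.11) turned without Jak2-9 replicate 1, and FANCL also without Jak2-10 replicate 1 or 2. In Luc against GFP, PMS1 turned without GFP replicate 1 (-0.070 to 0.014 without 1 array). Dim probe sets limit what can be seen, since their values may be background.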

Other observations

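None of the measured genes next to POLQ on chromosome 3 passed the test. Of the 10 nearest genes on each side in the RefSeq table, 7 were measured, and 0 passed in knockdown against control by limma (at unadjusted p under 0.05, 0 were lower and 1 higher), with a median log2 fold change of 0.02, against 0.04 for all genes. Over all genes 1.39% fell and 0.436% rose, and at unadjusted p under 0.05 these shares were 5.72% and 10.5%. FBXO40, an F-box protein gene, gave 0.34 (adjusted p = 0.0734), with no overlap of the groups, and GOLGB1, which encodes the Golgi protein giantin, gave -0.29 (adjusted p = 0.365). IQCB1, GTF2E1, HCLS1, STXBP5L and EAF2 lay between -0.13 and 0.08.

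Of 16 measured genes of the p53 response to DNA damage, 0 passed in knockdown against control by limma (0 lower and 0 higher at unadjusted p under 0.05), and their median was 0.00, against 0.04 for all genes. Beside them 1.39% of all genes fell and 0.436% rose, and 5.72% and 10.5% did at unadjusted p under 0.05. ZMAT3, a zinc finger gene induced by p53, gave -0.35 (adjusted p = 0.364) and FAS, a death receptor gene, -0.11 (adjusted p = 0.388).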
